A study of Mus musculus with 6 samples.

Results

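The genes described here encode the subunits of the proteasome, its activators, its inhibitor and the chaperones that assemble it. They were taken as every gene symbol made of Psm, a letter from a to g and a number, which gave 48 of the 52550 genes in the deposited table. Within them, Psmb8, Psmb9, Psmb10, Psme1 and Psme2 were set apart as the immunoproteasome group of 5, and the other 43 were called constitutive. The cells were mouse macrophages grown from C57BL/6 bone marrow for 7 days with 25 ng/ml of the growth factor M-CSF. AC CM libraries (3) came from macrophages given the culture medium of apoptotic chondrocytes, which are the cells of cartilage, and C CM libraries (3) from macrophages given the medium of normal chondrocytes. Strain, growth factor and length of culture were shared by both groups, so every value is relative to medium of normal chondrocytes and not to plain medium. The labels state neither how apoptosis was induced nor how long the macrophages were exposed. Whether a group's 3 samples are separate cultures or marrow of separate mice is likewise not stated, so a p-value here reflects no more than sample-to-sample spread, possibly technical.

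The proteasome destroys proteins that carry a ubiquitin tag. Its core, the 20S particle, is a barrel of alpha and beta rings in which some of the beta subunits cut. The 19S particle caps the barrel, recognises the ubiquitin chain, removes it, and unfolds the protein with a ring of ATPases. In cells exposed to interferon gamma, the cutting subunits encoded by Psmb5, Psmb6 and Psmb7 are exchanged for those encoded by Psmb8, Psmb9 and Psmb10, and the barrel can take a cap of PA28 made of the products of Psme1 and Psme2. This immunoproteasome is known for making the peptides that MHC class I molecules show to T cells, and macrophages are among the cells that express it.

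Counts summed to between 65630784 and 80105872 per library. Markers of macrophages were high in all 6 libraries, with a summed level of 17564, 17835 and 17097 CPM in AC CM libraries, against 19319.6, 20873 and 19511 CPM in C CM libraries (CPM, counts scaled to a library of 1000000, in the order of replicates 1, 2 and 3 here and below). Of these 8 markers 3 were lower after AC CM. Markers of other marrow cells were also lower after AC CM, and their values stand beside Psmb9 below. Markers of hepatocytes, a cell type that the labels do not name, summed to 41.8, 519.5 and 1135 CPM in AC CM libraries, against 37.1, 1.37 and 0.478 CPM in C CM libraries, so AC CM replicates 2 and 3 carried most of them. Of the 5 hepatocyte markers 0 passed edgeR's test, 0 had an unadjusted p under 0.05, 2 passed with DESeq2 and 0 with limma-voom. Apoa2, Ttr and Serpina1a were at 0 in C CM replicate 2, Apoa1 and Ttr were at 0 in C CM replicate 3, and their part in the results was not tested. C CM replicate 1 stood apart from the other C CM libraries (a chi-square per gene of 57.1 and 58.5 against them, and 25.4 between those 2).

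Medium of apoptotic chondrocytes was followed by modestly higher transcript levels of much of the constitutive proteasome, while the immunoproteasome group split, with Psmb8 higher and Psmb9 lower. Of the 48 genes, 47 had enough counts to be tested, and Psmb11, the catalytic subunit of the thymus, had no count in any library. By edgeR's quasi-likelihood test with Benjamini-Hochberg adjustment over 17863 genes, 18 of the 47 were higher after AC CM at an adjusted p under 0.05, 1 was lower and 28 did not pass. Over all genes tested, 13.3% were called higher and 13.3% lower. Abundant genes were called more often. Among the 7488 genes with a mean of at least 20 CPM, which include 42 of the 47 and all 19 that were called, 21.7% were higher and 16.6% lower. The log2 fold change (AC CM over C CM) was positive in 41 and negative in 6 of the 47, with a median of 0.20, beside a median of -0.0046 over all genes tested. Together the 48 genes took 0.450%, 0.443% and 0.442% of all counts in AC CM libraries, against 0.387%, 0.392% and 0.395% in C CM libraries.

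**Figure D1:**
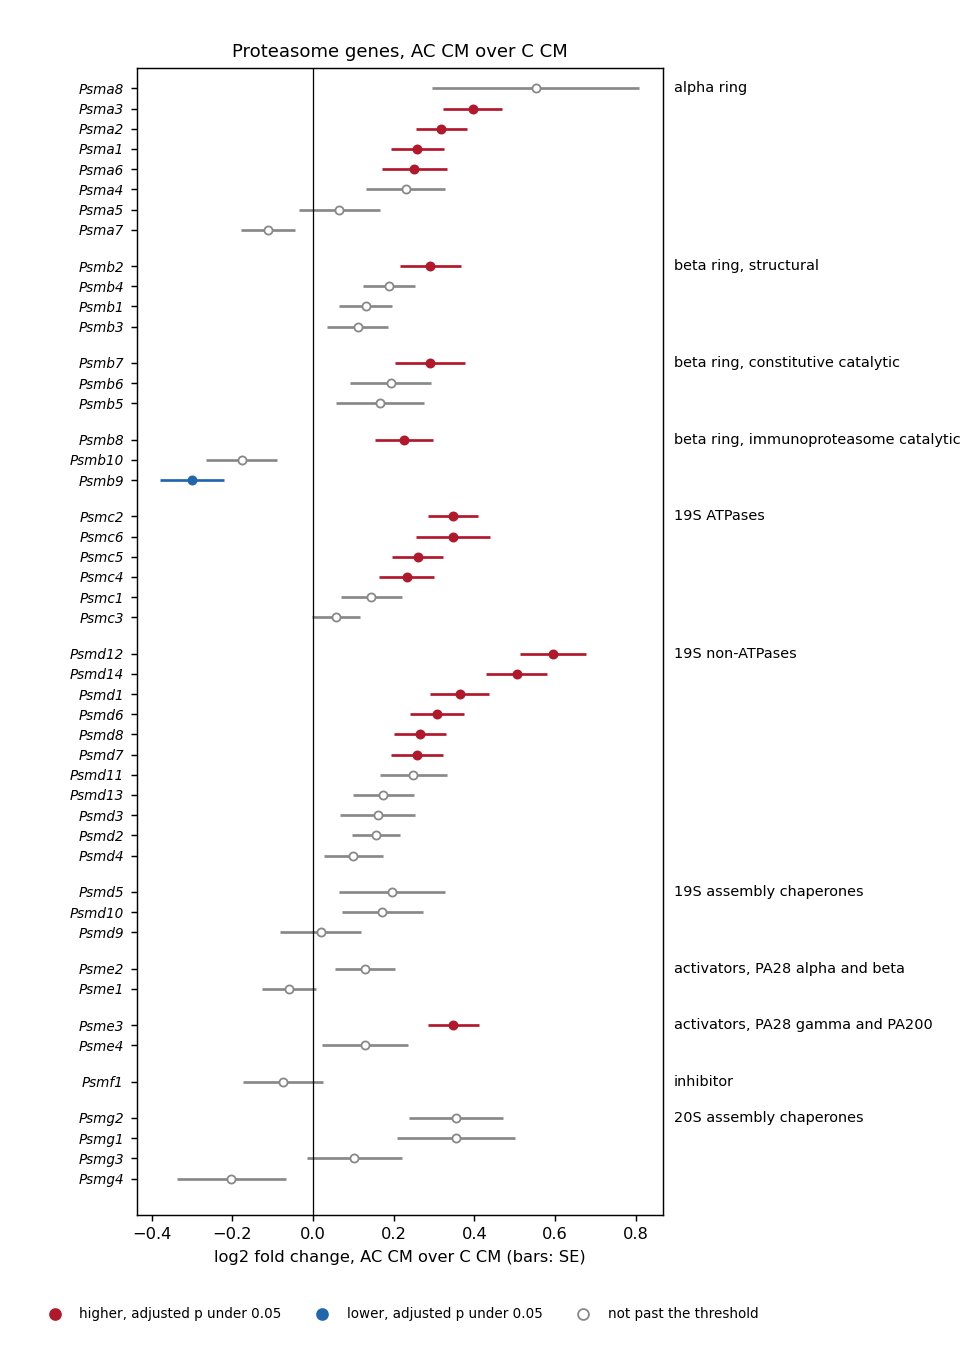
Log2 fold change (AC CM over C CM) on the x axis for the 47 proteasome genes tested, in blocks by role, with bars for the standard error; filled red points were higher, the filled blue point lower, and open points did not pass an adjusted p under 0.05. The 17 subunits of the 19S particle among these genes all lie right of 0, and Psmb9 at -0.30 is the only gene called lower.

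Groups did not overlap for 27 of the 47 genes with every AC CM library higher, and for Psma7, Psmb9 and Psmb10 with every AC CM library lower. Over all genes tested, 22.6% had every AC CM library higher and 22.1% every AC CM library lower. These shares include genes of low level and were not taken among abundant genes alone. The changes were small. The largest called was that of Psmd12, 51.0% above C CM, and the other calls lay between 16.9% (Psmb8) and 41.9% (Psmd14) higher, while Psmb9 fell by 18.8%. The count of higher calls moved with single libraries. It was 8, 10 and 8 without AC CM replicate 1, 2 or 3, and 25, 15 and 13 without C CM replicate 1, 2 or 3. When both AC CM replicates 2 and 3 were removed, in a fit that takes the lone AC CM library to vary like the C CM libraries, 1 gene was higher and 0 lower, while over all genes 510 were higher and 764 lower. That gene was Psmd12.

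The 5 genes of the immunoproteasome group did not move together. Their log2 fold changes had a median of -0.06 and ran between -0.30 and 0.23, beside a median of 0.23 and a range of -0.20 to 0.59 in the 42 constitutive genes tested. Of the 5, Psmb8 was higher, Psmb9 lower and the other 3 did not pass, whereas 17 of the 42 constitutive genes were higher and 0 lower (0 lower also at an unadjusted p under 0.05, with DESeq2 and with limma-voom). The 2 medians are set side by side as a description, with no test between them.

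Psmb8 (ENSMUSG00000024338.14, chromosome 17, 34197721 to 34201454, plus strand), whose product LMP7 replaces the Psmb5 subunit, had 228, 219 and 228 CPM in AC CM libraries, against 210.2, 184 and 183 CPM in C CM libraries. All 3 AC CM libraries lay above all 3 C CM libraries, but only narrowly above C CM replicate 1. It was higher after AC CM (log2 fold change 0.23, SE 0.07, adjusted p = 0.0463). This call was among the weakest. Its adjusted p was 0.152, 0.107 and 0.148 without AC CM replicate 1, 2 or 3, 0.14 and 0.132 without C CM replicate 2 or 3, 0.0502 with library totals, 0.0754 with upper quartile scaling and 0.0718 with no filter on low counts. An antisense gene, Gm20496, shares 498 exon bases with Psmb8 and averaged 4.14 ± 0.714 CPM in AC CM libraries against 4.25 ± 1.78 CPM in C CM libraries.

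Psmb9 (ENSMUSG00000096727.2, chromosome 17, 34181988 to 34187764, minus strand), whose product LMP2 replaces the Psmb6 subunit, lies near Psmb8 in the MHC region. Psmb9 had 73.5, 72.4 and 72.9 CPM in AC CM libraries, against 99.1, 87.1 and 83.2 CPM in C CM libraries. The AC CM libraries were nearly equal and all lay below the C CM libraries, of which replicate 1 was the highest. It was lower after AC CM (log2 fold change -0.30, SE 0.08, adjusted p = 0.0217), a call that was lost without AC CM replicate 1 (adjusted p = 0.068), 2 (0.0831) or 3 (0.0862). Psmb9 shares 212 exon bases on opposite strands with Tap1, the peptide transporter gene, and as no source says that counting took strand into account, reads of that stretch may not be separable. Tap1 itself had 179.5, 212 and 233 CPM in AC CM libraries, against 230.3, 183 and 190.5 CPM in C CM libraries and did not pass (log2 fold change 0.05, SE 0.11, adjusted p = 0.804).

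Markers of other marrow cells that can express immunoproteasome genes were lower, the direction of Psmb9 but not of all 5 genes of its group. Psmb10 and Psme1 were also negative without passing, while Psmb8 was higher and Psme2 was positive without passing. B cell markers summed to 9.65, 9.63 and 9.39 CPM in AC CM libraries, against 24.0, 29.8 and 26.1 CPM in C CM libraries, with 5 of 5 lower. Neutrophil markers summed to 186, 169 and 172 CPM in AC CM libraries, against 823, 957 and 835 CPM in C CM libraries, with 7 of 7 lower. In both lists the groups lay far apart. A marker sum does not measure how much of the Psmb9 level a cell type supplied. Dendritic cell markers summed to 1.92, 1.84 and 1.99 CPM in AC CM libraries, against 9.96, 8.14 and 9.21 CPM in C CM libraries, with 5 of 6 lower. T and NK cell markers summed to 1.26, 0.970 and 1.17 CPM in AC CM libraries, against 5.09, 6.14 and 5.19 CPM in C CM libraries, with 4 of the 4 tested lower. Monocyte markers summed to 265, 222 and 253 CPM in AC CM libraries, against 596, 741 and 729.5 CPM in C CM libraries, with 3 of 4 lower. No marker of these lists was at 0 in all 6 libraries. Their part in the Psmb9 result was not tested, and in these bulk samples fewer cells of a type and less RNA per cell cannot be told apart. Chondrocyte markers summed to 44.2, 48.8 and 47.2 CPM in AC CM libraries, against 45.8, 37.0 and 39.0 CPM in C CM libraries, with overlap, and none of the 4 tested passed, also with DESeq2 or limma-voom or at an unadjusted p under 0.05. The untested one, Acan, had 8, 9 and 12 counts in AC CM libraries and was at 0 in all 3 C CM libraries.

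Psmb10 (ENSMUSG00000031897.9, chromosome 8, 105935735 to 105938444, minus strand), whose product MECL-1 replaces the Psmb7 subunit, had 81.2, 78.2 and 79.2 CPM in AC CM libraries, against 102, 82.9 and 84.6 CPM in C CM libraries. Here too every AC CM library was lower, but 2 of the C CM libraries were close to the AC CM libraries and the difference did not pass (log2 fold change -0.18, SE 0.09, adjusted p = 0.177). Psme1 (ENSMUSG00000022216.16, chromosome 14, 55578123 to 55581529, plus strand) and Psme2 (ENSMUSG00000079197.10, chromosome 14, 55587441 to 55591113, minus strand), which encode the alpha and beta chains of PA28, lie close together. Psme1 had 118, 111 and 111 CPM in AC CM libraries, against 125, 113 and 116 CPM in C CM libraries, and the groups overlapped (log2 fold change -0.06, SE 0.07, adjusted p = 0.558). Psme2 had 96.5, 88.3 and 90.0 CPM in AC CM libraries, against 81.3, 90.2 and 79.9 CPM in C CM libraries, also with overlap (log2 fold change 0.13, SE 0.07, adjusted p = 0.238). Psme2 has a near copy, Psme2b, that is 99.4% identical over 794 aligned bases and drew 26.2% as many counts, so the division of reads between them is uncertain. Psme2b was on average lower after AC CM and did not pass (log2 fold change -0.27, SE 0.11, adjusted p = 0.116).

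The start regions of Psmb8, Psmb9 and Psme1 are shown because they are the immunoproteasome genes in which a searched element was found. Those of Psmb10 and Psme2 held none and are not shown. RefSeq promoters of GRCm38.p6, 250 bases before to 50 after the start site, were matched to 40 of the 48 genes and searched on both strands for an interferon-stimulated response element (GAAA, any 2 bases and GAAA again), a gamma-activated site (TTCNNNGAA), an antioxidant response element (TGACNNNGC) and the CCAAT box (CCAAT). These letters can share bases with each other but were counted separately. Each line gives 280 bases, 250 before and 30 after the start, 5′ to 3′ on the gene's strand, with matches in capitals. The windows of Psmb8, Psmb9 and Psme1 lie inside these genes as positioned in the deposited data. Psmb8 there begins at 34197721, Psmb9 at 34187764 on the minus strand and Psme1 at 55578123. Bases before those outer starts were therefore not searched. The capitals mark a gamma-activated site in Psmb8, a CCAAT box read on the other strand in Psmb9 and a response element read on the other strand in Psme1.
Psmb8 (chr17:34197945-34198224, plus strand): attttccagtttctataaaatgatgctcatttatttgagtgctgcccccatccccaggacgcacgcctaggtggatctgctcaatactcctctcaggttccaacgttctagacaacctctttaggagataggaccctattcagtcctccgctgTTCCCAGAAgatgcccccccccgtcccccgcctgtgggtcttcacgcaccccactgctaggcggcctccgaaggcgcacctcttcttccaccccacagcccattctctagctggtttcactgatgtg
Psmb9 (chr17:34187301-34187580, minus strand): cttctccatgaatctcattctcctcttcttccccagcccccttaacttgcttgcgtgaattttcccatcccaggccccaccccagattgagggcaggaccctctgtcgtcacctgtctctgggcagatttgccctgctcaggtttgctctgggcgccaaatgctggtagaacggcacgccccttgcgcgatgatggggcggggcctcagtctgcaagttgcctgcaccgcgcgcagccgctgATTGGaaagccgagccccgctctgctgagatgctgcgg
Psme1 (chr14:55578244-55578523, plus strand): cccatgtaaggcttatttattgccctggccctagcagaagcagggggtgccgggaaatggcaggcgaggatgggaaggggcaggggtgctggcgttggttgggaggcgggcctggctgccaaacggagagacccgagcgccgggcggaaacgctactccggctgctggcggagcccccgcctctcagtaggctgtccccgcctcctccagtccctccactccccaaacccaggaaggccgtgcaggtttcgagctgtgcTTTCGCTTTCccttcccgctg

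Among the 5 immunoproteasome genes the response element was found in 1 (Psme1), the gamma-activated site in 1 (Psmb8), the CCAAT box in 1 (Psmb9) and the antioxidant element in 0. Of the 35 constitutive genes with a promoter, 4 held the response element, 2 the gamma-activated site, 6 the antioxidant element and 13 the CCAAT box. A gene was counted if any of its promoters held a match (43 promoters for 40 genes), whereas the shares over all promoters count single promoters. Over all 32851 promoters of this length the shares were 3.44% for the response element, 8.30% for the gamma-activated site, 12.4% for the antioxidant element and 37.4% for the CCAAT box. The windows of Psmb8 and Psmb9 held different letters, and a link between these letters and the changes was not tested. A missing match says only that the letters are absent from this window.

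**Figure D2:**
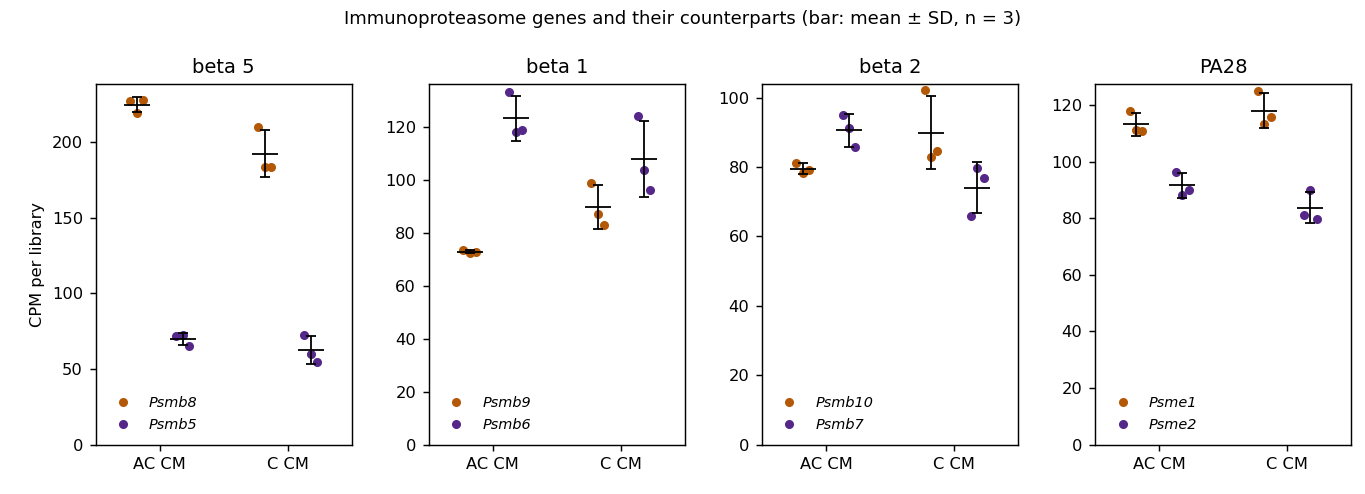
Level in CPM (y axis, starting at 0) of each immunoproteasome gene and its constitutive counterpart, and of Psme1 beside Psme2, for the 3 AC CM and 3 C CM libraries; points are libraries and bars the mean ± SD. Psmb9 sits near 73 CPM in all 3 AC CM libraries and between 83.2 and 99.1 CPM in C CM libraries.

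Of the 3 constitutive cutting subunits, Psmb7 was higher and the other 2 did not pass. Psmb5, the chymotrypsin-like subunit that LMP7 replaces, had 71.9, 72.8 and 65.3 CPM in AC CM libraries, against 72.7, 60.2 and 54.3 CPM in C CM libraries. Psmb6, the caspase-like subunit, had 133, 118 and 119 CPM in AC CM libraries, against 124, 104 and 96.1 CPM in C CM libraries. In both genes C CM replicate 1 overlapped the AC CM libraries, and neither passed (log2 fold change 0.17, adjusted p = 0.302, and 0.19, adjusted p = 0.197). Without C CM replicate 1 both were higher, with an adjusted p of 0.0218 for Psmb5 and 0.0139 for Psmb6. Psmb7, the trypsin-like subunit, had 95.1, 91.1 and 85.6 CPM in AC CM libraries, against 65.8, 79.6 and 76.7 CPM in C CM libraries. All AC CM libraries lay above all C CM libraries, and Psmb7 was higher (log2 fold change 0.29, SE 0.09, adjusted p = 0.0362), a call lost without AC CM replicate 1 (adjusted p = 0.129), 2 (0.103) or 3 (0.0644) or C CM replicate 3 (0.0586). Psmb7 shares 405 exon bases on opposite strands with Nek6, which was also higher (log2 fold change 0.48, SE 0.08, adjusted p = 0.00342), so the split of their reads is uncertain.

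A ratio taken within each library does not depend on how libraries are scaled, so each immunoproteasome gene was set against its counterpart as a log2 ratio of counts. For Psmb9 over Psmb6 the ratio was -0.86, -0.71 and -0.70 in AC CM libraries, against -0.33, -0.25 and -0.21 in C CM libraries, a difference of -0.50. Psmb10 over Psmb7 was at -0.23, -0.22 and -0.11 in AC CM libraries, against 0.63, 0.06 and 0.14 in C CM libraries, a difference of -0.46 that was -0.29 without C CM replicate 1. For both pairs every AC CM library lay below every C CM library. Psmb8 over Psmb5 was at 1.66, 1.59 and 1.80 in AC CM libraries, against 1.53, 1.61 and 1.75 in C CM libraries, with overlap and a difference of 0.05, which was -0.01 without AC CM replicate 3. The exact two-sided permutation test over the 6 libraries gave p = 0.1 for Psmb9 over Psmb6, 0.1 for Psmb10 over Psmb7 and 0.6 for Psmb8 over Psmb5 (0.15, 0.15 and 0.6 adjusted over the 3 pairs). Since 3 against 3 libraries cannot go below 0.1, none of the 3 could pass.

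Put per kilobase of transcript, which lets levels of different genes be compared, the immunoproteasome form made up different shares of each pair. Psmb8 held 64.0% ± 1.71 of the Psmb8 and Psmb5 level in AC CM libraries and 63.1% ± 1.82 in C CM libraries (SD, n = 3 each). Psmb9 held 25.9% ± 1.16 of its pair in AC CM libraries and 33.0% ± 0.899 in C CM libraries. For Psmb10 the share was 43.7% ± 1.11 in AC CM libraries and 51.7% ± 5.35 in C CM libraries, where replicate 1 was at 57.9% and the other 2 at 47.9% and 49.4%. The shares depend on the length used. Per kilobase of coding sequence they were 75.4% against 74.8% for Psmb8, 39.1% against 47.5% for Psmb9, and 47.1% against 55.1% for Psmb10 (AC CM against C CM). The order of the 3 positions was the same by either length, with Psmb8 holding most and Psmb9 least of its pair.

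**Figure D3:**
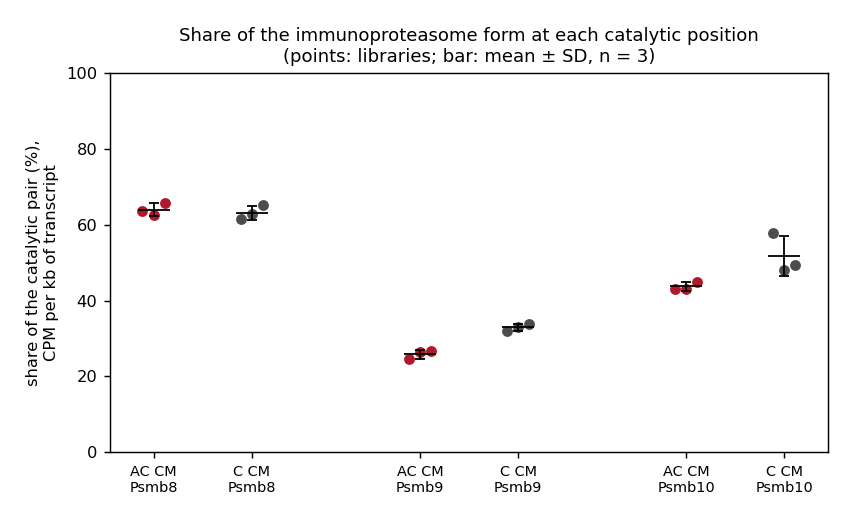
Share in percent (y axis, 0 to 100) of the immunoproteasome gene in the summed level of each catalytic pair, in CPM per kilobase of transcript, for AC CM (red) and C CM (grey) libraries with the mean ± SD. The Psmb9 share is lower in every AC CM library than in any C CM library, and the Psmb8 shares overlap.

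Psmb8 and Psmb9, which lie near each other on chromosome 17, moved apart. Their log2 ratio within a library was 1.63, 1.60 and 1.64 in AC CM libraries, against 1.08, 1.07 and 1.14 in C CM libraries, a difference of 0.52. This ratio was chosen after its values were seen and is given without a test. In it C CM replicate 1 lay with the other C CM libraries.

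The alpha ring, which forms the gate of the barrel, rose in part. Of its 8 genes 4 were higher and 4 did not pass, with a median log2 fold change of 0.26. Psma3 had 109, 102 and 109 CPM in AC CM libraries, against 74.6, 85.0 and 83.6 CPM in C CM libraries and Psma2 had 135, 130.4 and 132 CPM in AC CM libraries, against 102, 111 and 106 CPM in C CM libraries, in both cases without overlap. They were higher (Psma3, log2 fold change 0.40, SE 0.07, adjusted p = 0.00432, and Psma2, log2 fold change 0.32, SE 0.06, adjusted p = 0.00558), and both calls held with each library left out in turn. Psma1 (log2 fold change 0.26, SE 0.07, adjusted p = 0.0197) and Psma6 (log2 fold change 0.25, SE 0.08, adjusted p = 0.0496) were higher as well. The Psma1 call was lost without AC CM replicate 1, 2 or 3 (adjusted p = 0.0743, 0.0604 and 0.0803). The Psma6 call was lost without AC CM replicate 1, 2 or 3 (0.124, 0.103 and 0.16) or C CM replicate 3 (0.0675), and among the other scalings, filters and tools it was lost with RLE scaling (0.0505), library totals (0.0582), upper quartile scaling (0.0609), no filter (0.0543) and limma-voom (0.0521). Psma3 has a processed copy, Gm13835, identical over 665 aligned bases, that drew 3.48% as many counts.

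Psma7 differed from the others in sign. It had 85.1, 89.2 and 86.5 CPM in AC CM libraries, against 99.9, 92.2 and 89.7 CPM in C CM libraries, with every AC CM library lower, and it did not pass (log2 fold change -0.11, SE 0.07, adjusted p = 0.262). Psma8, a form of the alpha subunit known from testis, was barely expressed, at 1.97, 2.34 and 3.56 CPM in AC CM libraries, against 1.77, 1.83 and 1.78 CPM in C CM libraries. Its log2 fold change of 0.55 did not pass (adjusted p = 0.15) and rested mostly on AC CM replicate 3. Psma4 and Psma5, the other 2 genes of the ring, were at 0.23 and 0.07 and did not pass (adjusted p = 0.119 and 0.681). C CM replicate 1 was the lowest C CM library for 7 of the 8 alpha ring genes, the exception being Psma7.

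In the beta ring the 4 structural subunits were all positive, with a median log2 fold change of 0.16, but only Psmb2 passed. It had 90.9, 78.6 and 84.6 CPM in AC CM libraries, against 72.4, 66.4 and 68.8 CPM in C CM libraries, with no overlap (log2 fold change 0.29, SE 0.08, adjusted p = 0.0223). The call was lost without AC CM replicate 1 (adjusted p = 0.104) or 3 (0.0816) or C CM replicate 2 (0.0726) or 3 (0.0585). Psmb4 was at 0.19 (adjusted p = 0.0582, and 0.0158 without C CM replicate 1), Psmb1 at 0.13 (0.188) and Psmb3 at 0.11 (0.322). Over the whole 20S barrel, 7 of 18 genes tested (38.9%) were higher and 1 (5.56%) lower. Among genes with a mean of at least 20 CPM, 21.7% were higher and 16.6% lower.

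**Figure D4:**
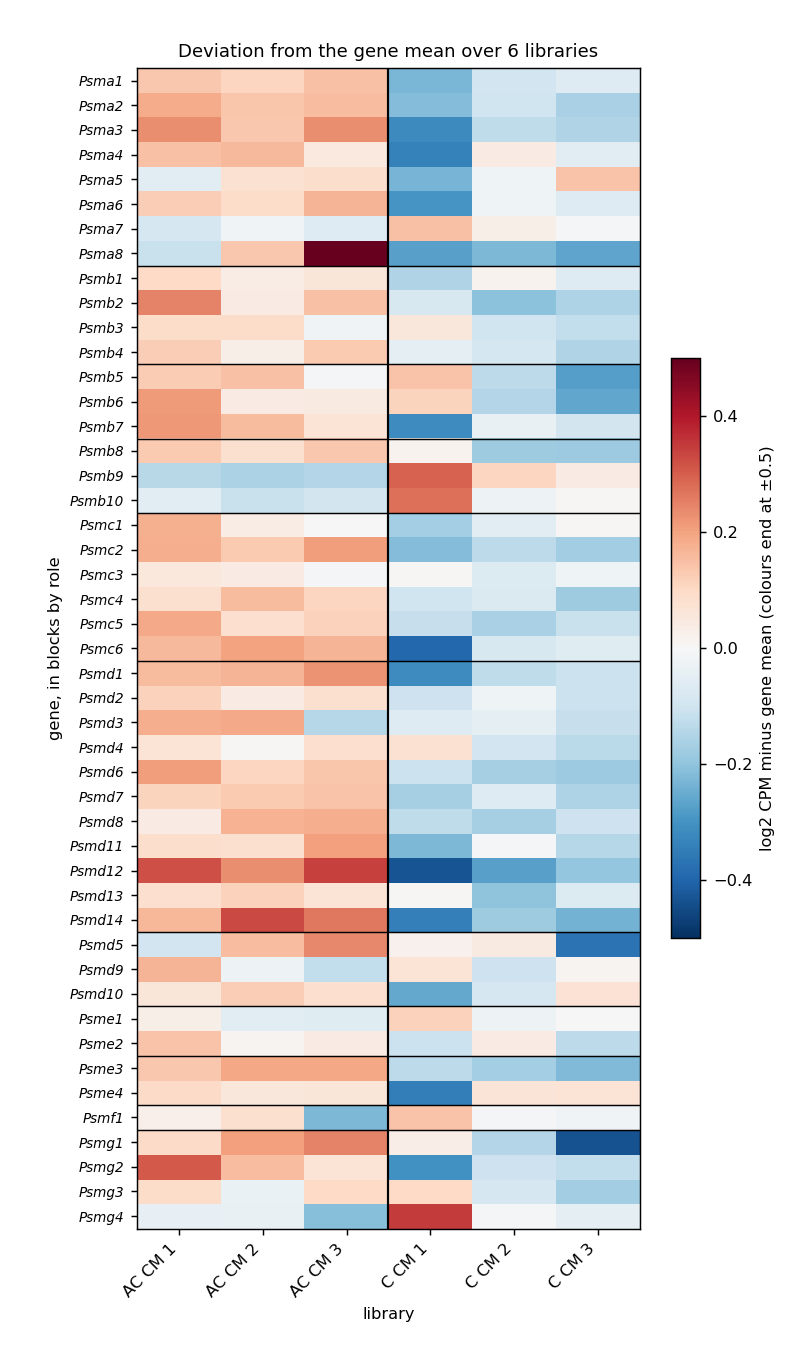
Deviation of each proteasome gene (rows, in blocks by role) from its own mean over the 6 libraries (columns, AC CM left of C CM), on the log2 CPM scale, red above and blue below the mean. Most rows are red in the 3 AC CM libraries, Psmb9 and Psmb10 are blue there, and C CM 1 is the lowest C CM library in 20 rows and the highest in 20.

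Subunit genes of the 19S particle taken by the symbol rule leaned one way. All 17 had a positive log2 fold change, between 0.06 and 0.59 with a median of 0.26. Of the 17, 10 were higher and 7 did not pass, beside 21.7% higher among genes with a mean of at least 20 CPM. Groups did not overlap in 13 of the 17, with every AC CM library higher, beside 22.6% of all genes tested, a share that includes genes of low level. Adrm1 and Sem1, 19S genes that carry other symbols, were at -0.02 and 0.06 and did not pass (adjusted p = 0.93 and 0.736). The largest changes among the 17 were those of 2 lid subunits. Psmd12 (ENSMUSG00000020720.13, chromosome 11, 107479484 to 107504362, plus strand), a scaffold subunit of the lid, had 78.1, 73.2 and 79.0 CPM in AC CM libraries, against 46.2, 51.7 and 54.6 CPM in C CM libraries. Psmd14 (ENSMUSG00000026914.15, chromosome 2, 61711694 to 61800376, plus strand), the deubiquitinase Rpn11 that cuts the ubiquitin chain off the substrate, had 78.0, 87.4 and 83.7 CPM in AC CM libraries, against 54.9, 61.6 and 59.1 CPM in C CM libraries. In both genes the lowest AC CM library lay well above the highest C CM library. Psmd12 was higher by 0.59 (SE 0.08, adjusted p = 0.000928) and Psmd14 by 0.50 (SE 0.08, adjusted p = 0.00151). With both AC CM replicates 2 and 3 removed, Psmd12 was at 0.62 (adjusted p = 0.0459) and Psmd14 at 0.41 (0.133). Psmd12 was the only gene of the 48 whose call held under all 17 alternatives.

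The same 280 bases are shown for these 2 genes, since they changed most. The capitals mark an antioxidant response element read on the other strand in Psmd12, 247 bases before the start, and CCAAT boxes in Psmd14, of which the last run of 8 capitals holds 2 overlapping matches, 1 on each strand.
Psmd12 (chr11:107479278-107479557, plus strand): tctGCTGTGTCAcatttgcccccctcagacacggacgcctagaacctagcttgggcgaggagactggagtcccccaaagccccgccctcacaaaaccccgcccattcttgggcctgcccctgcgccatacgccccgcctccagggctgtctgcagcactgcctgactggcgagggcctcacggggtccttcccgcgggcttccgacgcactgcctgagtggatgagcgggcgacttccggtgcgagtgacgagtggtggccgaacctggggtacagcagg
Psmd14 (chr2:61711444-61711723, plus strand): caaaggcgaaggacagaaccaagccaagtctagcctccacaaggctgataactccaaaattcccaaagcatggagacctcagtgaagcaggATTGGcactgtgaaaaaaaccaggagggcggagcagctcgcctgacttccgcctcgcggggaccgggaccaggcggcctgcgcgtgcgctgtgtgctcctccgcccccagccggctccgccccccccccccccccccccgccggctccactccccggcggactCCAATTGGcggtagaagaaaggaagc

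Psmd1, the large scaffold of the base, had 182, 183 and 190.4 CPM in AC CM libraries, against 131, 149 and 151 CPM in C CM libraries, without overlap (log2 fold change 0.36, SE 0.07, adjusted p = 0.00609), and its call held with each library left out. Psmd6 (0.31, adjusted p = 0.00939), Psmd7 (0.26, 0.0167) and Psmd8 (0.26, 0.0163), all lid subunits, were higher too. Psmd7 is the partner with which Psmd14 forms the deubiquitinating pair. The Psmd6 call was lost without AC CM replicate 1 (adjusted p = 0.0532). The Psmd7 call was lost without AC CM replicate 1, 2 or 3 (0.0574, 0.0624 and 0.0799), and that of Psmd8 without AC CM replicate 2 (0.0787) or 3 (0.0809) or C CM replicate 2 (0.0539). Psmd8 had 165, 181 and 182 CPM in AC CM libraries, against 147, 143 and 149.7 CPM in C CM libraries. Its level per kilobase of transcript in AC CM libraries (114 CPM) was the highest among the 17 19S genes taken by the symbol rule.

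Of the non-ATPase subunits that did not pass, Psmd11 came closest, at 51.8 ± 2.57 CPM in AC CM libraries against 43.6 ± 3.36 CPM in C CM libraries (log2 fold change 0.25, SE 0.08, adjusted p = 0.056). Psmd11 has a near copy, A730017L22Rik, 97.9% identical over 1501 bases, that drew 20.3% as many counts and was itself higher (log2 fold change 0.56, SE 0.15, adjusted p = 0.0261), so this pair is uncertain. The ubiquitin receptor gene Psmd4 was at the low end (log2 fold change 0.10, SE 0.07, adjusted p = 0.365), with C CM replicate 1 inside the AC CM range. Psmd2 (0.15, adjusted p = 0.0885), Psmd3 (0.16, 0.25) and Psmd13 (0.17, 0.121) did not pass either. Single C CM libraries decided some of these. Without C CM replicate 1, Psmd2, Psmd4 and Psmd13 were higher (adjusted p = 0.0475, 0.0401 and 0.0277), and without C CM replicate 2 Psmd11 was (0.0406). Psmd13 shares 342 exon bases with Sirt3 on the opposite strand, and Sirt3 was at -0.31 (0.0837).

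The 6 ATPases of the base, which form the unfolding ring, were all positive, and 4 were higher. Psmc2 had 128, 123 and 130.1 CPM in AC CM libraries, against 96.9, 103 and 99.9 CPM in C CM libraries, with no overlap (log2 fold change 0.35, SE 0.06, adjusted p = 0.00335), and held with each library left out. Psmc6 had 115, 118 and 116 CPM in AC CM libraries, against 78.4, 97.4 and 98.6 CPM in C CM libraries, where C CM replicate 1 was well below the other 2 (log2 fold change 0.35, SE 0.09, adjusted p = 0.0227). Psmc5 (log2 fold change 0.26, SE 0.06, adjusted p = 0.0157) and Psmc4 (log2 fold change 0.23, SE 0.07, adjusted p = 0.0343) were also higher. The Psmc6 call was lost without AC CM replicate 1, 2 or 3 (adjusted p = 0.0646, 0.0772 and 0.0703) and that of Psmc5 without AC CM replicate 1 (0.0832) or 3 (0.0667). For Psmc4 it was lost without AC CM replicate 1, 2 or 3 (0.0852, 0.127 and 0.107) or C CM replicate 2 (0.053) or 3 (0.0874). Psmc1 (0.14, adjusted p = 0.196) and Psmc3 (0.06, 0.53) did not pass, with 131, 129.8 and 125 CPM in AC CM libraries, against 126, 120.3 and 124 CPM in C CM libraries for Psmc3.

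Among the other caps, Psme3, which encodes PA28 gamma, the nuclear relative of the interferon-inducible PA28 chains, had 97.6, 102 and 102 CPM in AC CM libraries, against 81.2, 79.1 and 76.4 CPM in C CM libraries. No C CM library reached the AC CM range, and Psme3 was higher (log2 fold change 0.35, SE 0.06, adjusted p = 0.00355), also with each library left out. Its log2 ratio to Psme1 within a library was -0.27, -0.13 and -0.12 in AC CM libraries, against -0.62, -0.52 and -0.60 in C CM libraries, a difference of 0.41. The ratio of Psme3 to Psme2 differed less, by 0.22, with 0.02, 0.21 and 0.18 in AC CM libraries, against -0.0008, -0.19 and -0.06 in C CM libraries. Both are given without a test, as the pairs were chosen after their values were seen. Psme4, which encodes the activator PA200, had 152, 148 and 149 CPM in AC CM libraries, against 112, 149 and 149 CPM in C CM libraries. Only C CM replicate 1 was low, and Psme4 did not pass (log2 fold change 0.13, SE 0.11, adjusted p = 0.421).

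Of the inhibitor and the chaperones, 8 genes in all, none passed edgeR's test. The inhibitor gene Psmf1 (PI31) averaged 37.5 ± 4.08 CPM in AC CM libraries against 39.5 ± 2.51 CPM in C CM libraries (log2 fold change -0.08, SE 0.10, adjusted p = 0.629). The 3 chaperones that assemble the 19S base, Psmd5, Psmd9 and Psmd10, were at 0.20, 0.02 and 0.17 with overlapping groups, and none passed (adjusted p = 0.314, 0.917 and 0.25). The 4 chaperones of the 20S barrel, which were expressed at 8.10 to 14.9 CPM on average, did not pass either. Psmg2 came closest (log2 fold change 0.35, SE 0.12, adjusted p = 0.0533), with 16.2, 14.5 and 13.7 CPM in AC CM libraries, against 10.6, 12.2 and 12.0 CPM in C CM libraries. It had no overlap, and the authors' deposited table called it higher (adjusted p = 0.0453). At an unadjusted p under 0.05 there were 2 higher among the 20S chaperones and 0 among the 19S chaperones, DESeq2 called 1 and 0, and limma-voom 0 and 0. Psmg1 was at 0.35 (adjusted p = 0.108, and 0.0375 without C CM replicate 1), Psmg3 at 0.10 (0.575) and Psmg4 at -0.20 (0.312). In all, the authors' deposited table had 19 of the 48 genes higher and 1 lower at its adjusted p under 0.05, where it called 9.72% of its 27127 genes higher and 8.94% lower.

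C CM replicate 1 stood at different ends of its group by role. Over the 47 genes it was the lowest C CM library in 20 and the highest in 20, and over all genes tested it was the lowest in 7202 and the highest in 6608. It was the lowest in 7 of 8 alpha ring genes but the highest in 4 of the 5 immunoproteasome genes. Of the 7 calls that held with each library left out in turn, 3 were 19S non-ATPase genes (Psmd1, Psmd12 and Psmd14), 2 alpha ring genes (Psma2 and Psma3), 1 an ATPase (Psmc2) and 1 an activator (Psme3).

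Genes that work with the proteasome but carry other symbols were counted from lists chosen with earlier results of these data known. Of 14 other proteasome genes found, 9 (64.3%) were higher and 5 did not pass, with a median log2 fold change of 0.26. Beside the counts of this list and those below, 21.7% of genes with a mean of at least 20 CPM were higher and 16.6% lower. Uchl5 had 27.3, 29.7 and 29.0 CPM in AC CM libraries, against 15.5, 19.3 and 17.9 CPM in C CM libraries and Usp14 had 93.7, 94.2 and 94.4 CPM in AC CM libraries, against 53.0, 66.5 and 65.5 CPM in C CM libraries. Both encode deubiquitinases that sit on the 19S particle beside Psmd14, their groups did not overlap, and both were higher (Uchl5, log2 fold change 0.71, SE 0.11, adjusted p = 0.00144, and Usp14, log2 fold change 0.61, SE 0.09, adjusted p = 0.00147). Txnl1, a thioredoxin bound to the 19S particle, was at 0.37 (adjusted p = 0.00943), the scaffold gene Ecpas at 0.32 (0.012) and the ubiquitin ligase gene Ube3c at 0.25 (0.0448). The shuttle genes Rad23b and Ubqln1, which carry ubiquitinated proteins to the particle, were at 0.27 (adjusted p = 0.0154) and 0.22 (0.0236). Akirin2, which brings proteasomes into the nucleus, was at 0.38 (0.0359) and Psme3ip1, a partner of PA28 gamma, at 0.26 (0.0241). The calls for Uchl5, Usp14 and Txnl1 held with each library left out. That for Ecpas was lost without AC CM replicate 3 (adjusted p = 0.0567). Those for Rad23b, Ubqln1, Akirin2, Psme3ip1 and Ube3c were lost when any one of the 3 AC CM libraries was left out, with adjusted p between 0.0546 (Rad23b, AC CM replicate 2 out) and 0.136 (Ube3c, AC CM replicate 1 out). All but Rad23b were also lost without C CM replicate 2 (0.0717 for Ubqln1, 0.0724 for Akirin2, 0.0543 for Psme3ip1 and 0.0662 for Ube3c), and Ubqln1 without C CM replicate 3 (0.0573). The Ube3c call was also lost with library totals (0.0546) and upper quartile scaling (0.058). The 20S chaperone gene Pomp did not pass (log2 fold change 0.14, SE 0.07, adjusted p = 0.18).

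Of 5 genes known for the transcription of proteasome genes or for activating its factors, 1 was lower and 4 did not pass. Nfe2l1, the factor that raises proteasome genes when the particle is blocked, had 66.4, 65.4 and 54.6 CPM in AC CM libraries, against 57.0, 70.1 and 55.1 CPM in C CM libraries, with overlap (adjusted p = 0.872). Ddi2, the protease that activates it, was lower, at 126 ± 8.23 CPM in AC CM libraries against 187 ± 14.2 CPM in C CM libraries (log2 fold change -0.58, SE 0.08, adjusted p = 0.000946), and held under all 17 alternatives. Nfe2l2 was at -0.01, Ngly1 at -0.15 and Vcp at 0.07, and none of the 3 passed (adjusted p = 0.958, 0.248 and 0.421).

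**Figure D5:**
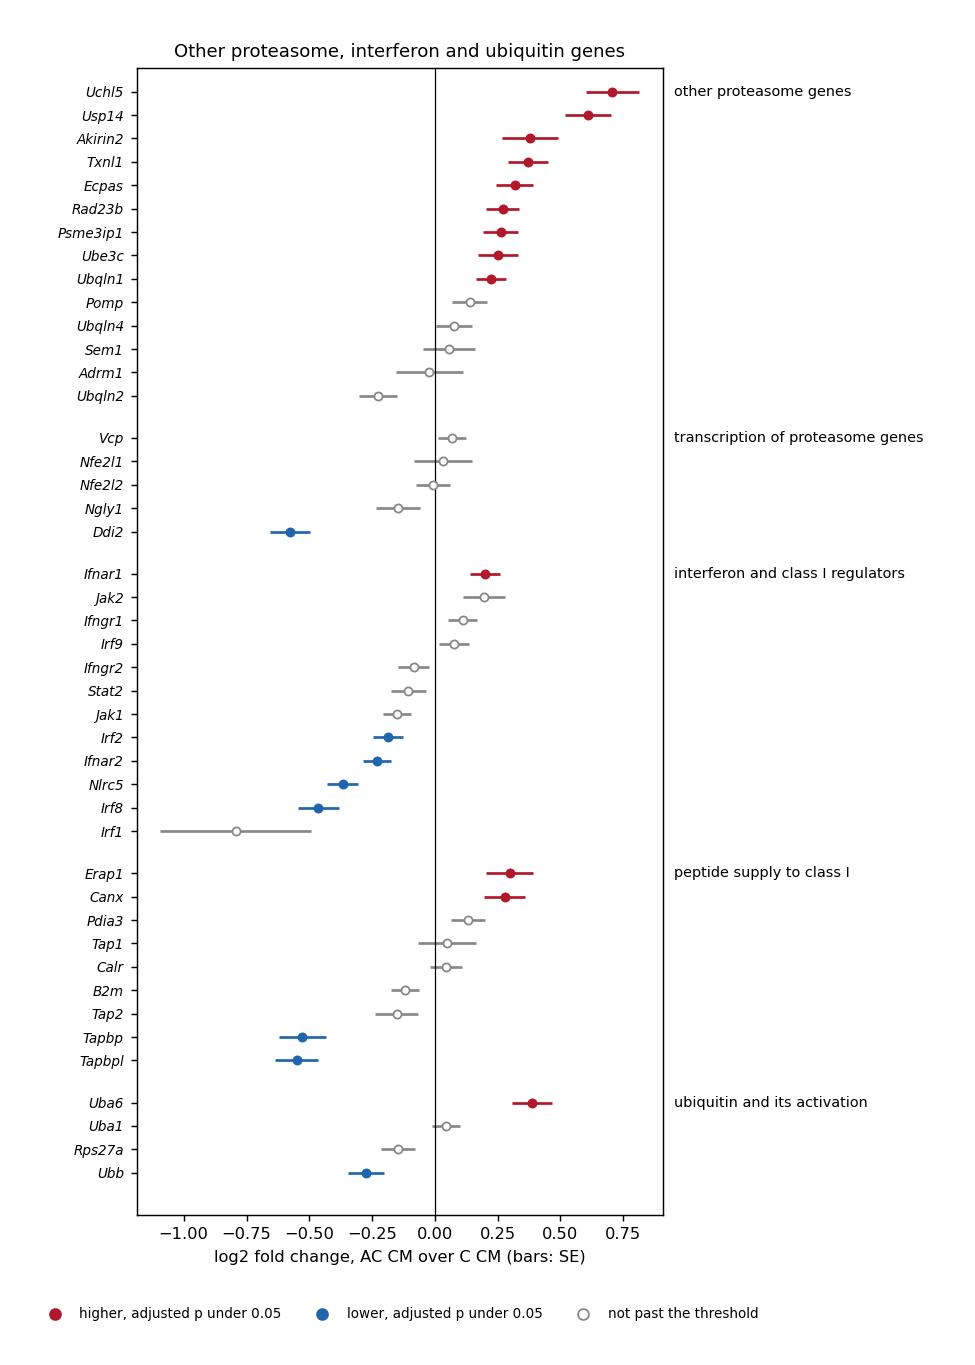
Log2 fold change (AC CM over C CM, x axis) with standard error for 44 genes that work with the proteasome, its transcription, interferon signalling, class I peptide supply and ubiquitin, in blocks by list; filled points passed an adjusted p under 0.05. In the list of other proteasome genes 9 of 14 are filled red, and in the interferon and class I list 4 of 12 are filled blue.

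Among genes with a mean of at least 20 CPM, 21.7% were higher and 16.6% lower. Of 12 interferon and class I regulators, 1 (8.33%) was higher, 4 (33.3%) lower and 7 did not pass, with a median log2 fold change of -0.13. Lower were Irf8, an interferon regulatory factor of the myeloid lineage, at -0.46 (adjusted p = 0.00322), the class I transactivator gene Nlrc5 at -0.37 (0.00239), the receptor gene Ifnar2 at -0.23 (0.0166) and Irf2 at -0.19 (0.0478), while the receptor gene Ifnar1 was higher (0.20, 0.0349). Irf1, known to act on the promoter that Psmb9 shares with Tap1, had 70.6, 54.1 and 48.9 CPM in AC CM libraries, against 82.0, 74.9 and 144 CPM in C CM libraries, with every AC CM library lower but a wide spread in C CM libraries, and did not pass (log2 fold change -0.79, SE 0.30, adjusted p = 0.116). Of 9 genes of peptide supply to class I, Erap1 (0.30, 0.0477) and Canx (0.28, 0.0341) were higher, Tapbp (-0.53, 0.00336) and Tapbpl (-0.55, 0.00171) lower, and 5 did not pass. That made 22.2% higher and 22.2% lower. Calls for Irf8, Nlrc5, Tapbp and Tapbpl held with each library left out. Those for Irf2, Ifnar1, Ifnar2, Erap1 and Canx were lost when any one of the 3 AC CM libraries was left out, with adjusted p between 0.0612 (Ifnar2, without replicate 3) and 0.16 (Irf2, without replicate 3). Without C CM replicate 2 those for Irf2 (0.0984), Ifnar1 (0.0535) and Erap1 (0.09) were lost, and without C CM replicate 3 those for Irf2 (0.0744) and Ifnar1 (0.0656). The Erap1 call was also lost with library totals (0.0605) and upper quartile scaling (0.0587), and that for Irf2 with no filter on low counts (0.0654).

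Of 4 genes of ubiquitin and its activation 1 was higher, 1 lower and 2 did not pass. The ubiquitin gene Ubb was lower (log2 fold change -0.28, SE 0.07, adjusted p = 0.0209), and the activating enzyme gene Uba6 was higher (log2 fold change 0.39, SE 0.08, adjusted p = 0.00789). Rps27a was at -0.15 (adjusted p = 0.145, and 0.00845 without C CM replicate 1) and Uba1 at 0.05 (0.603). The Uba6 call held with each library left out. That for Ubb was lost without AC CM replicate 1, 2 or 3 (adjusted p = 0.0567, 0.0952 and 0.0821). Over the 44 genes of these 5 lists, 13 (29.5%) were higher and 8 (18.2%) lower, beside the 21.7% and 16.6% given above. The counts moved to between 4 and 13 higher and between 5 and 11 lower with single libraries left out, and to 0 higher and 1 lower (Ddi2) when both AC CM replicates 2 and 3 were removed.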

How the data were processed

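Libraries for mRNA sequencing of 6 macrophage samples, 3 AC CM and 3 C CM by their titles, were deposited as a single table of genes. The submitters' processing notes name DESeq2 1.18.1, R 3.4.3, HISAT2 2.1.0 and fastp 0.17.1 without their roles. For the counting program, its use of strand and the genome build, the entry is not given in the sources used here. Read counts per gene were deposited by the authors without normalization, between 65630784 and 80105872 per library. A second set of columns deposited by the authors, normalized signal, is those counts divided by 1 constant per library, and it was not tested. The log2 fold changes and p-values that the authors deposited are their own comparison and were only read and counted. Gene positions are those of the deposited table, in which 95.2% of the identifiers matched to GENCODE M21 (GRCm38) had the same coordinates there, 41 of the 48 proteasome genes among them. Low counts favoured multiples of 4 (394 to 446 genes with a count of 3, against 696 to 814 with a count of 4 per library), and the reason is not stated.

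Low genes were removed by filterByExpr and libraries scaled by TMM. The main test was edgeR's robust quasi-likelihood test (edgeR 4.0.16, R 4.3.3), whose model held group alone, and Benjamini-Hochberg adjustment ran over the 17863 genes left. CPM are counts scaled to a TMM-adjusted library of 1000000. The procedure was tested on simulated data. Log2 ratios within libraries were compared with an exact two-sided permutation test. DESeq2 1.42.0 and limma-voom (limma 3.58.1), other scalings and filters, counts divided by 4, the 20 most counted genes left out, the replicate number as a block and left-out libraries were run as alternatives. Exon overlaps and lengths came from GENCODE M21, with the longest principal coding transcript (APPRIS tag) per gene as its length, and near copies (at least 95% identical over at least 300 bases) were found with BLAST 2.17.0 among its transcripts. Promoters came from RefSeq. Python 3.11.15 with scipy 1.17.1, numpy 2.4.6, pandas 2.3.3 and matplotlib 3.10.9 made the tables and plots.

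The genes and lists were chosen with earlier results of these data known. Named with values are the immunoproteasome group, its counterparts, every proteasome gene past the threshold, the largest and smallest change of each role, and genes of the other lists past the threshold. Genes named outside this rule, among them those that overlap or copy a named gene, were chosen after their values were seen. Of 45 genes on the other lists 44 were found, with Ecpas listed as AI314180 and Psme3ip1 as Fam192a. Some genes of these lists are not reported here.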

Additional observations from a re-analysis of the deposited data

How the results depend on the processing

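With single libraries left out, between 8 and 25 proteasome genes were called higher and between 0 and 1 lower, between 4 and 13 genes of the other lists were higher and between 5 and 11 lower, and between 1511 and 2667 of all genes were higher. When both AC CM replicates 2 and 3 were removed, 1 proteasome gene was higher and 0 lower, 0 genes of the other lists were higher and 1 lower, and 510 of all genes were higher and 764 lower. A lone AC CM library was then assumed to vary like the C CM libraries, so fewer samples carried the test. In the remaining settings 14 to 21 proteasome genes were higher and 1 was lower. Same-numbered samples did not deviate together (correlations of -0.06, 0.03 and 0.04). These values show no pairing by replicate number but cannot exclude it, as they rest on deviations from means of 3 libraries. With the replicate block 14 proteasome genes were higher and 1 lower. The block ended the calls for Psma6 (adjusted p = 0.0561), Psmb7 (0.0567), Psmb8 (0.0543), Psmc4 (0.0564), Erap1 (0.0531), Ifnar1 (0.0676), Irf2 (0.0863) and Ube3c (0.0666). A ratio within a library has no value under the block.

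The sign turned in values that were never called. The log2 fold change of Psmd9 was -0.0051 with upper quartile scaling, and between -0.071 (without AC CM replicate 1) and 0.084 with single libraries left out. That of Psmf1 was between -0.13 and 0.012 (without AC CM replicate 3), and that of Psma5 between -0.024 (without C CM replicate 1) and 0.16. With both AC CM replicates 2 and 3 removed, Psma5 was at -0.034 and Psmd5 at -0.0099. The log2 ratio of Psmb8 to Psmb5 was between -0.0056 (without AC CM replicate 3) and 0.11. On the other lists, with single libraries left out, Adrm1 was between -0.12 and 0.17, Sem1 between -0.045 and 0.15, Nfe2l1 between -0.033 and 0.15, Nfe2l2 between -0.049 and 0.049, and Tap1 between -0.039 and 0.16 (-0.17 with both AC CM replicates 2 and 3 removed). Ubqln2 gained a call as lower in 5 alternatives and Jak1 in 2, and without C CM replicate 1 B2m was lower (adjusted p = 0.0105). The cause was not tested. Of the values for the 47 proteasome genes and the 44 genes of the other lists under the alternatives, 1361 kept their direction and side of the threshold, 143 lost the call, 22 gained one and 20 turned. Other scalings moved the median of all genes by less than 0.1. With 3 libraries a group, a gene that did not pass is not shown to be unchanged.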
